A study of Homo sapiens with 8 samples.

Results

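TTC8 and IFT80 are genes of the primary cilium, and they were singled out because RFX7 peaks lay close to them in HCT116 cells. The rule took every entry of both deposited peak lists whose summit lay within 50 kb of either end of the gene. They are 2 of 20037 protein-coding genes, of which 407 (2.03%) had a DMSO entry and 609 (3.04%) a Nutlin-3a entry within that distance. Both genes together hold 1 of 505 entries in the list of DMSO-treated cells (at TTC8) and 4 of 622 entries in the list of Nutlin-3a-treated cells (1 at TTC8 and 3 beside IFT80). The genes were chosen by the position of these entries, a measured value, so the number and strength of these entries are a description and carry no test.

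RFX7 binding was mapped by chromatin immunoprecipitation with an RFX7 antibody followed by sequencing. HCT116 is a human colorectal carcinoma cell line in which p53 is functional. Cells received 10 µM Nutlin-3a, which stabilises p53 by blocking MDM2, or the solvent DMSO, both for 24 h. There were 2 RFX7 samples and 2 input chromatin samples per treatment, 8 in all. The files hold 1 peak list per treatment, with no value per sample. Treatments can therefore not be compared beyond replicate error, and the read depth of each sample is unknown. Each list entry carries the authors' fold enrichment, −log10 p and −log10 q, which are used here only to place an entry within its own list.

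The cilium is a microtubule-based projection that senses signals or moves fluid. Intraflagellar transport carries its building blocks along the axoneme in IFT-A and IFT-B particles, and the BBSome, a complex of Bardet-Biedl syndrome proteins, moves membrane proteins in and out of it. TTC8 (also called BBS8) is a BBSome subunit, and IFT80 is an IFT-B subunit. Ciliary genes are the classical targets of other RFX factors, which bind the X-box, a pair of inverted half-sites of the form GTTNCC and GGNAAC with a short spacer. RFX7 belongs to the same DNA-binding family.

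The promoter sequences of both genes are shown because a peak covers that of TTC8 and none covers that of IFT80. Each is the RefSeq sequence (GRCh38.p14) of the 250 bases before a transcription start, written 5′ to 3′ in the direction of transcription. Capitals mark the half-site GTTGCC, searched on both strands.
TTC8, chr14:88824401-88824650, plus strand: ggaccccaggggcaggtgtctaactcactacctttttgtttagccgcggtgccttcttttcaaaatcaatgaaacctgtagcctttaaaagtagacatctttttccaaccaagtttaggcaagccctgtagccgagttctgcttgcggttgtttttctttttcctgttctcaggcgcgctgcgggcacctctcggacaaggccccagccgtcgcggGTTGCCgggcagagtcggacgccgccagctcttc
IFT80, chr3:160399226-160399475, minus strand: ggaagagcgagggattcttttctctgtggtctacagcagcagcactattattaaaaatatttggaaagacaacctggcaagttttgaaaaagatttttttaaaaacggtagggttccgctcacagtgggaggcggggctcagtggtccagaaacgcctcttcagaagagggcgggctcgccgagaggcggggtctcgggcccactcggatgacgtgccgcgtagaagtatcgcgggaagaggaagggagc
The TTC8 promoter holds 1 copy of GTTGCC, from 34 to 29 bases before the start. The IFT80 promoter, read to 50 bases past its start, holds 0 copies.

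At TTC8 both treatments gave a single entry on the promoter. The gene spans 88824153 to 88881079 on chromosome 14 and has 2 annotated starts, 498 bp apart, at 88824153 and 88824651. The DMSO entry covered 88824460 to 88824623 (164 bp), with a fold enrichment of 5.37, a −log10 p of 20.1 and a −log10 q of 15.2. The Nutlin-3a entry covered 88824348 to 88824812 (465 bp), with a fold enrichment of 4.45, a −log10 p of 45.7 and a −log10 q of 40.6. The whole DMSO entry lay inside the Nutlin-3a entry and made up 35.3% of its width. Both entries passed a −log10 q of 10.

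The peaks lay nearer to the downstream start of TTC8 than to the upstream one. The DMSO summit was 79 bp before the start at 88824651 and 419 bp after the start at 88824153. The Nutlin-3a summit was 209 bp before the downstream start and 289 bp after the upstream one. The summits were 130 bp apart, whereas the midpoint of the Nutlin-3a entry lay 8 bp from the DMSO summit. The GTTGCC half-site at 88824617 to 88824622 was inside both entries, 45 bp from the DMSO summit and 175 bp from the Nutlin-3a summit. In the DMSO entry it ended 1 bp before the entry did.

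**Figure D1:**
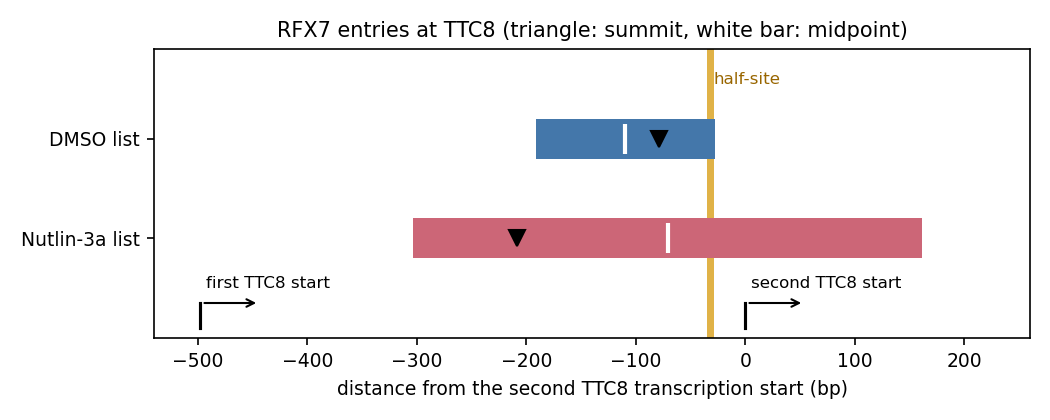
Both RFX7 entries at TTC8, drawn to scale in bp from the downstream transcription start (x axis), 1 row per list. Bars are entries, triangles summits, white ticks midpoints, arrows both annotated starts, and the vertical band the half-site, which lies inside both entries from -34 to -29 bp.

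No other protein-coding gene lay close to the TTC8 peak. The next was EML5, which encodes a microtubule-associated protein, with its nearer end 31619 bp from the DMSO summit and 31489 bp from the Nutlin-3a summit. The only other annotated feature within 50 kb was RNU4-92P, a pseudogene of the U4 spliceosomal RNA, 4140 and 4010 bp away. The next RFX7 entry on the chromosome was 2.18 Mb from the gene in both lists. Taking the peak caller's definitions, the DMSO entry corresponds to a pileup of 44 extended reads over a local background of 7.38. The Nutlin-3a entry gave no whole-number pileup (136.48 over 29.9), so its fold enrichment, p-value and summit need not describe the same point.

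Beside IFT80 the entries lay inside a neighbouring gene and only in the Nutlin-3a list. IFT80 spans 160256986 to 160399225 on chromosome 3 and is transcribed from the minus strand. SMC4, which encodes a core subunit of the condensin complex that compacts chromosomes, starts 425 bp away and is transcribed in the opposite direction, with annotated starts at 160399650 and 160400559. The 3 entries covered 160401069 to 160401313, 160401379 to 160401542 and 160401633 to 160401983. They formed a run of 915 bp with gaps of 65 and 90 bp, all within SMC4.

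The entry farthest from IFT80 was the strongest of the run. Its fold enrichment was 5.9997 and its −log10 q 12.6, and the pileup solved to 32 over a background of 4.50. The middle entry reached a fold enrichment of 3.21, with 3.17 for −log10 q (pileup 25 over 7.11). The entry nearest to IFT80 reached 3.04, with 2.87 for −log10 q (pileup 26 over 7.90). Thus 1 of the 3 passed a −log10 q of 5 or 10, and both weaker entries stood near the end of the list by significance, at ranks 593 and 583 of 622 by −log10 q.

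Every one of the 3 summits was nearer to SMC4 than to IFT80. They lay 1887, 2202 and 2677 bp before the IFT80 start. From the first SMC4 start they were 1462, 1777 and 2252 bp downstream, and from the second SMC4 start 553, 868 and 1343 bp downstream. Further into SMC4 lie the microRNA genes MIR15B and MIR16-2, whose hairpins were 2686 and 2843 bp from the strongest summit. TRIM59, which encodes a ubiquitin ligase, had its nearer end 33601 bp and its start 47884 bp from that summit. The readthrough transcript TRIM59-IFT80, annotated as non-coding, spans the whole region. The peak lists do not tell which of these genes the entries belong to, and gene expression was not analysed here.

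**Figure D2:**
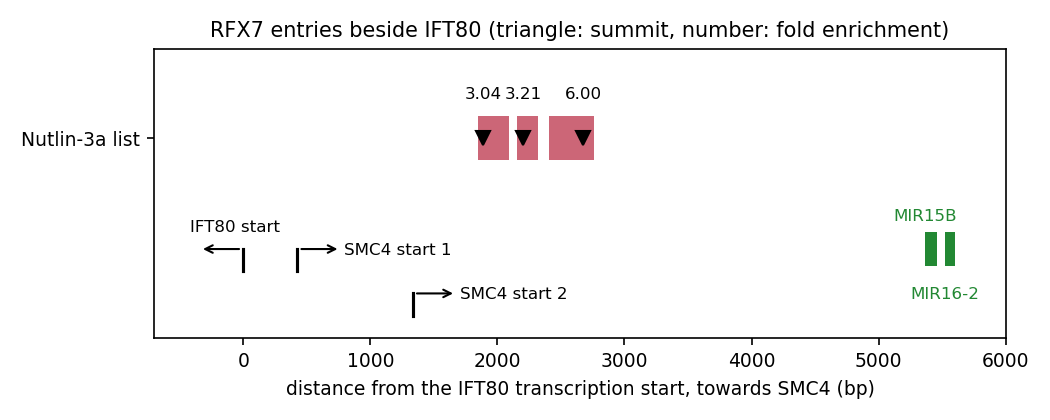
The 3 Nutlin-3a entries beside IFT80, drawn to scale in bp from the IFT80 start towards SMC4 (x axis). Bars are entries, triangles summits, numbers above them fold enrichment (3.04 and 3.21 for the entries nearer to IFT80, and the highest of the 3 for the farthest), arrows the starts and directions of IFT80 and SMC4, and green blocks the microRNA hairpins.

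In the DMSO list the nearest entry to IFT80 was 25.2 Mb away, and in the Nutlin-3a list the next one after the run was 3.01 Mb away. An entry missing from a list does not show that binding was absent, since the lists stop at a −log10 q of 1.31 (DMSO) and 1.36 (Nutlin-3a) and give no signal elsewhere. Of all entries, 268 of 622 Nutlin-3a entries and 130 of 505 DMSO entries had no overlap with the other list. Of the 5 entries at both genes, the 2 at TTC8 overlapped by at least 1 bp. Neither of those counted as shared when 50% of both entries had to overlap or when summits had to lie within 100 bp. The share of all entries under these stricter criteria was not counted, so this is not read as particular to TTC8.

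By fold enrichment the TTC8 entry ranked 82 of 505 for DMSO and 193 of 622 for Nutlin-3a. The IFT80 entries ranked 113, 318 and 332 of 622. The order depended on the measure: by −log10 p the TTC8 entries ranked 266 and 229, and the strongest IFT80 entry ranked 407. The median fold enrichment was 4.26 for the 154 DMSO entries within 5 kb of a protein-coding gene end and 2.86 for all DMSO entries. For the Nutlin-3a list it was 4.79 (204 entries) and 3.28. Against entries near genes, the fold enrichment of TTC8 was above the median for DMSO and below it for Nutlin-3a. Its −log10 q of 15.2 and 40.6 was above the median of such entries in both lists (9.71 and 14.99). Against all entries it was below the median for DMSO (17.2) and above it for Nutlin-3a (22.6). Ranks from lists of different lengths give no direction of change. The Nutlin-3a entry at TTC8 gave no whole-number pileup, so its fold enrichment and −log10 p need not describe the same point.

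**Figure D3:**
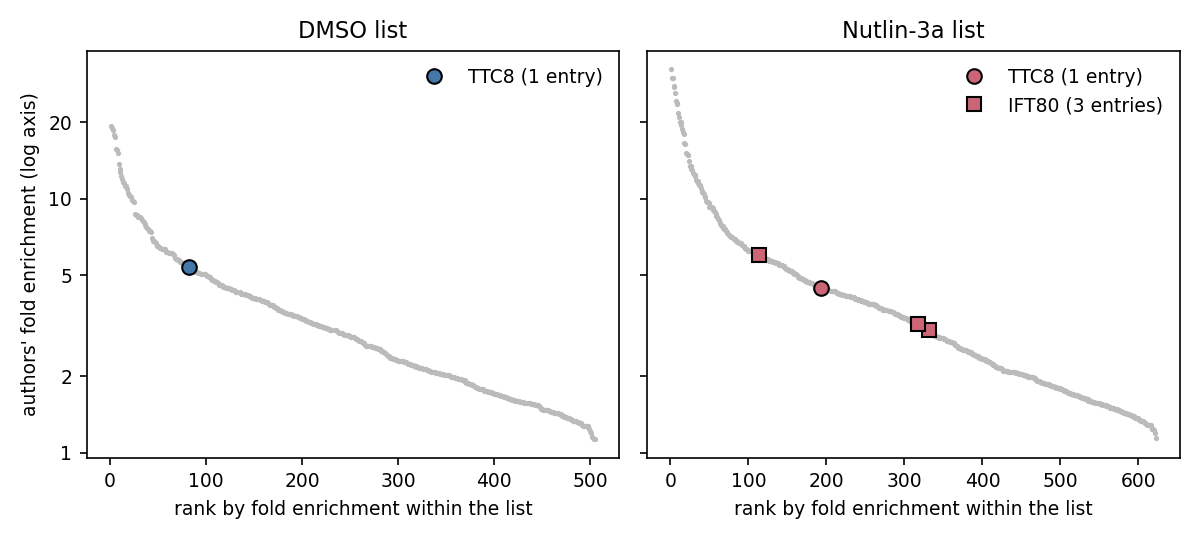
Authors' fold enrichment (y axis, log scale) against rank within the list (x axis) for all entries (grey), with the entries at TTC8 (circles) and IFT80 (squares) marked. TTC8 stands at rank 82 (DMSO) and 193 (Nutlin-3a), and the IFT80 entries at 113, 318 and 332.

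To place both genes among their kind, 74 ciliary genes were listed by role, and all were found in the gene table. Within 5 kb of a gene end, 1 of 74 had a DMSO entry (1.35%, TTC8) and 2 of 74 a Nutlin-3a entry (2.7%, TTC8 and IFT80). Over all protein-coding genes the shares were 0.764% and 1.08%. The median distance from a ciliary gene to the nearest summit was 4970 kb for DMSO entries and 3080 kb for Nutlin-3a entries, beside 4510 and 2960 kb over all protein-coding genes. TTC8 and IFT80 were chosen for their entries, so nothing about the list is read from these counts.

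By role, of 8 BBSome subunits, only TTC8 had an entry within 5 kb, in either list. Of 17 IFT-B subunits, only IFT80 did, in the Nutlin-3a list, and the nearest DMSO summit to any IFT-B gene was 1440 kb away, at IFT20. None of the 6 IFT-A subunits, 8 transport motor genes, 5 BBSome assembly and recruitment genes, 17 transition zone and basal body genes or 13 motile cilium genes and regulators had a gene end within 5 kb of a summit in either list. The nearest IFT-A genes were IFT140 (215 kb, DMSO) and WDR19 (352 kb, Nutlin-3a). FOXJ1, a master regulator of motile cilia, was nearest of its group in the DMSO list at 400 kb, and RSPH1, a radial spoke gene, in the Nutlin-3a list at 238 kb. Among the assembly and recruitment genes the nearest were LZTFL1 (1490 kb, DMSO) and ARL6 (1100 kb, Nutlin-3a).

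A distance of 50 kb added 3 ciliary genes. BBIP1, the smallest BBSome subunit, lay 26899 bp from a DMSO summit and 27110 bp from a Nutlin-3a summit, but these entries were 97 and 308 bp from PDCD4, which encodes an inhibitor of translation. DYNC2I2, an intermediate chain of the dynein that drives retrograde transport, lay 39577 bp from a DMSO summit that was 90 bp from an end of ZDHHC12, a palmitoyltransferase gene. CEP164, which encodes a distal appendage protein of the mother centriole, lay 6109 bp from a Nutlin-3a summit inside the gene. With these, 3 of 74 genes had a DMSO entry within 50 kb (against 2.03% of all protein-coding genes) and 4 of 74 a Nutlin-3a entry (against 3.04%). The genes on either side of the 50 kb limit were DYNC2I2 at 39.6 kb and IFT140 at 215 kb.

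**Figure D4:**
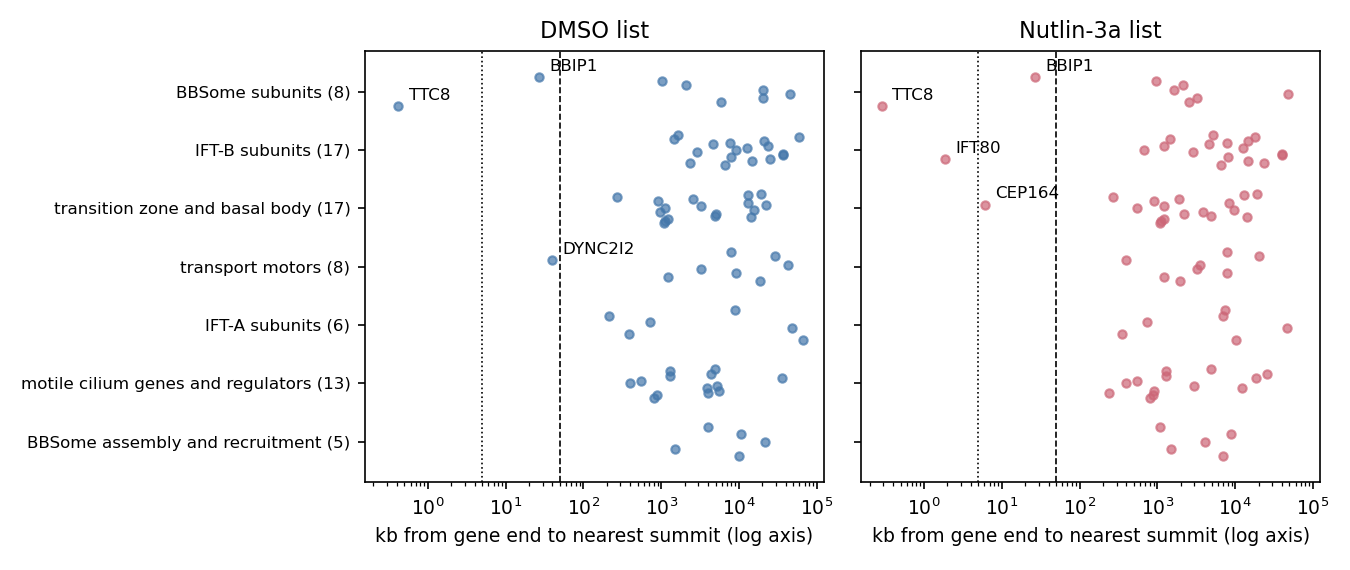
Distance from the nearer gene end to the nearest summit in kb (x axis, log scale) for 74 ciliary genes by role (y axis, number of genes in brackets), 1 panel per list and 1 point per gene. The dotted line is at 5 kb and the dashed line at 50 kb. In the DMSO list TTC8 alone is left of the dotted line, and in the Nutlin-3a list TTC8 and IFT80 are.

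Measured from transcription starts, CEP164 was closer to an RFX7 summit than either TTC8 or IFT80. Its gene span begins at 117321778 on chromosome 11, but the start in the promoter table is 117327854, and the Nutlin-3a entry at 117327794 to 117328028 (235 bp) had its summit 33 bp after it. Its fold enrichment of 4.95 ranked 163 of 622, and its −log10 q was 8.55. It had no counterpart in the DMSO list, where the nearest summit was 22.1 Mb away. The same lack of overlap held for 268 of 622 Nutlin-3a entries, and a missing entry does not show that binding was absent. The next protein-coding gene, BACE1, was 11631 bp from the summit. Within 1 kb of a start, 1 of 62 ciliary genes with a promoter in the table had a DMSO summit (TTC8, against 0.562% of all protein-coding genes) and 2 had a Nutlin-3a summit (TTC8 and CEP164, against 0.77%). Within 5 kb of a start the DMSO count was again 1 (against 0.751%) and the Nutlin-3a count was 3, with IFT80 added (against 1.09%). This measure was chosen after the data were examined.

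The CEP164 start also carries the half-site GTTGCC, on the opposite strand, 14 bp from the summit. The window shown is chr11:117327856-117327885, plus strand, with the half-site in capitals.
CEP164: tgcgcgctgcagGGCAACaccccggcgtcc

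The half-site was found at many ciliary promoters, with and without an RFX7 entry. GTTGCC on either strand occurred in 12.2% of 35116 promoters of 300 bases (250 before to 50 after the start), and in 43.4% of 76 promoters of ciliary list genes. Counted by gene, 30 of 62 ciliary genes (48.4%) and 16.2% of 15843 protein-coding genes had it. Of those 30 genes, TTC8 and CEP164 had a Nutlin-3a summit within 1 kb of a start and 28 did not. Over all protein-coding genes 0.77% had such a summit, so the 28 are not read as a result about the half-site. Among promoters with a summit inside, 12 of 47 with a DMSO summit (25.5%) and 31 of 90 with a Nutlin-3a summit (34.4%) held GTTGCC. The median GC content was 62.2% for the ciliary promoters, 66.0% and 67.5% for those with a DMSO or Nutlin-3a summit, and 58.7% for all promoters. The part of base composition in these shares was not tested. The looser form GTTNCC, which includes every GTTGCC, occurred in 45.4% of all promoters, 46.8% of those with a DMSO summit inside, 56.7% of those with a Nutlin-3a summit inside and 76.3% of those of ciliary list genes, so the DMSO share was near that of all promoters. It added no further copy at TTC8 or IFT80.

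**Figure D5:**
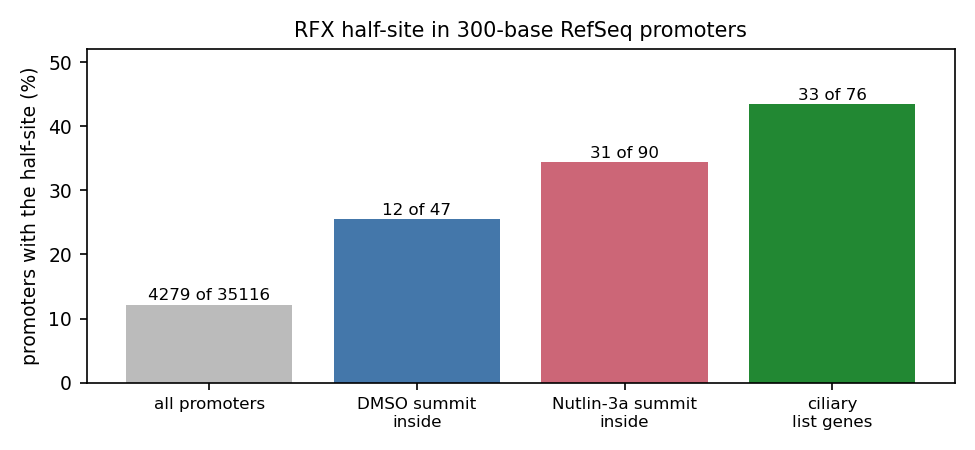
Share of 300-base promoters with the RFX half-site on either strand (y axis, percent) for all promoters, those with a DMSO or Nutlin-3a summit inside, and those of ciliary list genes. The bars stand at 12.2, 25.5, 34.4 and 43.4%, and the numbers above them are promoters with the half-site of all in the group.

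Exact matches to the paired half-sites were found at other ciliary genes and not at TTC8 or IFT80. The form GTTNCC, 0 to 3 bases, GGNAAC occurred in 0.74% of all promoters. It was in 0 of the 3 promoters of TTC8 and IFT80, which at that share is not read as a result about these genes. Of 62 ciliary genes, 5 had it (8.06%, beside 1.07% of protein-coding genes). These 5 sites are shown as 30-base windows, 5′ to 3′ in the direction of transcription, because they are X-box letters at ciliary genes. None of these genes had an RFX7 entry within 5 kb of an end. Over all protein-coding genes only 0.764% had a DMSO entry and 1.08% a Nutlin-3a entry within that distance. The lack of an entry at so few genes is therefore not read as a result about the sites. Capitals mark the paired half-sites.
IFT70A, chr2:177618719-177618748, minus strand: gttgccctGTTGCCGTGGTAACcgcacgca
ARL6, chr3:97764726-97764755, plus strand: aagctcctGTTGCCAAGGGAACggtgcctg
IFT122, chr3:129440205-129440234, plus strand: catgtacGTTGCCAGGGGTAACgcaggtag
BBIP1, chr10:110919142-110919171, minus strand: tctcaccGTTACCCGGGGCAACagctgagc
TCTN1, chr12:110614121-110614150, plus strand: ctgtcgcgGTTGCCGGGCAACgcgctgtcc
IFT70A and IFT122 encode subunits of the IFT-B and IFT-A particles, ARL6 the small GTPase that recruits the BBSome to membranes, and TCTN1 a transition zone protein. The nearest summit in either list was 26.9 kb from BBIP1, at PDCD4, and 1100 kb from ARL6. For IFT122, TCTN1 and IFT70A the nearest summit in either list was 7440, 14300 and 36600 kb away. The median distance over all protein-coding genes was 4510 kb in the DMSO list and 2960 kb in the Nutlin-3a list. Of the promoters with a summit inside, 0 of 47 (DMSO) and 1 of 90 (Nutlin-3a) held the paired form. A match to letters is not a measured binding site, and the windows do not reach the entries beside IFT80, which begin 461 bp past the later SMC4 promoter. At TTC8 the searched promoter at the peak, 88824401 to 88824700, covers only part of the Nutlin-3a entry, 88824348 to 88824812.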

How the data were processed

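The members and gene lists were chosen with earlier results of these data known. Per the submitters' processing notes, the tools included Trimmomatic 0.39, cutadapt 2.10, SAMtools 1.10, MACS2 2.2.7.1 and bedtools 2.29.2, and the build was hg38. The aligner, the settings and any pooling of replicates are not given in the sources used here. The authors deposited 1 narrowPeak list per treatment that gives for each entry its position, its summit, a fold enrichment (ratio of ChIP to local background), −log10 p and −log10 q. The deposited score equals −log10 q times 10, truncated, in 503 of 505 DMSO and 621 of 622 Nutlin-3a entries.

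Entries were read with Python 3.11.15 and pandas 2.3.3, and positions are 1-based. Distances run from the summit to the nearer gene end in the RefSeq table (GRCh38.p14, no strand) or to a start in the RefSeq promoter table, which gives strand. Pileup and background were solved with scipy 1.17.1, assuming that the fold is pileup plus 1 over background plus 1 and p the upper Poisson tail, and a pileup within 0.02 of an integer was called whole. The functions were tested on simulated data. Named genes were TTC8, IFT80, coding genes within 50 kb of their summits, ciliary genes within 50 kb of a summit and the nearest gene of each role. IFT70A, IFT122 and TCTN1, the neighbours PDCD4, ZDHHC12 and BACE1, and the non-coding neighbours RNU4-92P, MIR15B, MIR16-2 and TRIM59-IFT80, were named after their values were seen. No test was made, since the genes were chosen for their entries and each treatment has 1 list. Of the 74 ciliary genes, 62 had a sequence in the promoter table.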

Additional observations from a re-analysis of the deposited data

How the results depend on the processing

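No paired analysis was possible because the deposited values are 1 list per treatment and none per replicate, so no replicate could be left out either. Of 61 alternative values, 40 stayed near the value in the report (counts within 1.5 times, rank percentiles within the 95% Wilson interval) and 21 moved. That interval served only as a yardstick. A rank in a complete list has no sampling error, so the interval measures no spread between replicates or ways of processing. The 40 do not measure robustness either, since several of them could not have moved. The count of TTC8 entries was 1 per list under each distance, position and −log10 q limit tried, and the IFT80 count in the DMSO list was 0. The distance limits could not change these counts. The next entry was 2.18 Mb from TTC8 in both lists, and the nearest was 25.2 Mb from IFT80 in the DMSO list. Nor could the −log10 q limits, as the TTC8 entries reached 15.2 and 40.6 and a count of 0 cannot fall. The 3 IFT80 entries fell to 1 at a −log10 q of at least 5 or 10.

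Rank percentiles (0 is the top of the list) moved with the measure and with the entries ranked. TTC8 in the DMSO list stood at 16.2 by fold enrichment, and at 52.7 by −log10 p, 52.5 by −log10 q, 33.9 among entries with no other within 10 kb, 29.9 among entries within 5 kb of a gene end and 21.8 among entries at least 150 bp wide. In the Nutlin-3a list it stood at 31.0, and at 36.8, 36.7, 58.4, 57.4 and 38.9 in the same order. The IFT80 entry nearest to the gene stood at 53.4, and at 95.8 by −log10 p, 95.3 by −log10 q, 93.6 among entries within 5 kb of a gene end and 62.6 among entries at least 150 bp wide. It was not ranked among entries with no other within 10 kb, since it has neighbours in its run. No rank could be given for IFT80 in the DMSO list. The limit of 150 bp and the distance to transcription starts were chosen after seeing the data.

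Ciliary genes with an entry numbered 3 (DMSO) and 4 (Nutlin-3a) at 50 kb, and 1 (Nutlin-3a) at 1 kb. Entries at both genes that overlapped the other list numbered 2 at 1 bp, and 0 with 50% of both entries or with summits within 100 bp. The share of all entries under the stricter criteria was not counted. The lists give no signal outside their entries, so an entry just under the threshold cannot be told from none.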
